A study of Mus musculus with 17 samples.

Results

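Solute carriers are the membrane proteins that move amino acids, ions, sugars, vitamins and metabolites into and out of cells and organelles. Every probe set whose single gene symbol in the platform annotation begins with Slc and a digit was taken as a member, except those of the glucose carriers Slc2a1 and Slc2a3 and of the scaffold protein gene Slc9a3r1. This gave 181 of the 12422 probe sets that are not array controls, and these stood for 148 of the 8251 genes with a symbol of their own. A probe set was tested if 3 or more arrays gave it a signal above 41.1, the median value of the whole table. Of the members, 126 probe sets and 109 genes passed, among 8067 probe sets and 6044 genes in all. A gene was represented by its brightest probe set.

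The series profiled mouse oocytes and embryos on Affymetrix MG-U74Av2 arrays, which carry short oligonucleotide probes grouped into probe sets. The 17 arrays comprised 4 of oocytes, 3 of 1-cell, 3 of 2-cell and 4 of 8-cell embryos, and 3 of blastocysts. All groups share the same RNA treatment, total RNA amplified by 2 rounds of in vitro transcription. Strain, maturation stage of the oocytes, age of the females and number of embryos per array are not given in the labels, nor whether the arrays of a stage came from separate collections, so the p-values measure the spread between these arrays, which may be technical.

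Solute carriers of the plasma membrane work as uniporters, as cotransporters driven by the sodium or proton gradient, or as exchangers that trade one solute for another. The oocyte and early embryo draw on them for amino acids, phosphate, metals and vitamins, and for control of cell volume and pH, while the Slc25 family joins the matrix of mitochondria to the cytosol. In the blastocyst the trophectoderm is a transporting epithelium, and polarised carriers there are known to serve the filling of the cavity and the uptake of amino acids before implantation.

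The values are microarray signals that the authors had scaled so that the trimmed mean of each array is about 150, so a level is relative to the whole array and not per embryo, and in these bulk samples fewer cells of a type and less RNA per cell cannot be told apart. The summed signal of 6 oocyte genes was 187 to 229 on blastocyst arrays, against 28914 to 31071 on oocyte arrays, and that of 6 blastocyst genes was 6333 to 7743 on blastocyst arrays, against 131 to 154 on oocyte arrays. That second sum was carried by Krt8 and Krt18. Gata6 averaged 223 in blastocysts and 431 in 8-cell embryos, and Cdx2 and Krt19 stayed below the filter, with means of 8.07 and 3.67 in blastocysts and 8.55 and 11.4 in 8-cell embryos. Each array correlated best with another of its own stage, at r of 0.95 to 0.98 over the 8067 probe sets that passed the filter. Summed oviduct and uterus markers (6 genes) ran from 156 to 7216 over the 8-cell arrays, where replicate 2 held the top value with Ovgp1 at 6212, and from 1057 to 1723 over the 2-cell arrays. On the other arrays of the series they ran from 134 to 448. The high sums came from Ovgp1 and Ltf, with Ltf at 827.7 on 8-cell replicate 2 and a mean of 209.6 in 2-cell embryos. Col1a1 averaged 134.8 in 2-cell and 169.8 in 1-cell embryos and was at 73.5 on 8-cell replicate 2. Muc1 averaged 19.5 in 2-cell and 37.8 in 1-cell embryos. Col3a1 and Pgr did not pass the filter. Summed blood markers (5 genes) were 219 to 316 on the 2-cell arrays, against 98.5 to 141.6 on the 1-cell arrays. On the 8-cell arrays they were 166 to 247. Among these markers Lyz2 was at 58.9 to 79.0 on the 2-cell arrays and 1.6 to 2.0 on the 1-cell arrays. Lyz2 also reached 50.3 on 8-cell replicate 3 and 82.4 on blastocyst replicate 3. From 1-cell to 2-cell embryos the mean of Hba-a1 went from 52.3 to 117 and that of Cd68 from 41.7 to 41.9. Alas2 and Ptprc did not pass the filter. Summed cumulus and granulosa markers (7 genes) were 285.1 to 317.5 on the oocyte, 193 to 344 on the 1-cell and 108 to 246 on the blastocyst arrays. Among them Inha, which did not pass the filter, was at 82.1 and 72.6 on oocyte replicates 1 and 2, and at 9.9 and 22.9 on replicates 3 and 4. Summed sperm markers (6 genes) were 296 to 393 on the oocyte, 286 to 372 on the 1-cell and 386 to 436 on the 2-cell arrays. The part of these markers in the results below was not tested, but values with each array left out are given where a call is lost.

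Between stages, 91 of the 109 solute carrier genes differed by limma's moderated F test with Benjamini-Hochberg adjustment over all probe sets (adjusted p below 0.05, used for every call here), a share of 83.5% against 86.0% of all 6044 genes. In 1-cell embryos against oocytes, 11 genes were higher and 15 lower. Among all genes tested, 18.0% were higher and 20.9% lower in that comparison. Calls of either kind thus took in 23.9% of the carriers and 38.9% of all genes. In 2-cell against 1-cell embryos 24 were higher (25.8% of all genes) and 21 lower (22.8% of all genes). In 8-cell against 2-cell embryos, 31 rose (26.2% of all genes) and 30 fell (29.6% of all genes), which was the largest number of calls among the consecutive comparisons. In blastocysts against 8-cell embryos, 27 rose (23.0% of all genes) and 25 fell (20.7% of all genes). From end to end, blastocysts held 37 genes above the oocyte level (32.4% of all genes) and 33 below it (33.8% of all genes). Calls of either kind took in 41.3% of carriers and 48.6% of all genes in the 2-cell comparison, 56.0% and 55.8% in the 8-cell comparison, 47.7% and 43.7% in the blastocyst comparison, and 64.2% and 66.2% in blastocysts against oocytes. Apart from the first comparison, the carriers' shares were near those of all genes. When the arrays were scaled on the spiked control transcripts instead, 0 genes were higher by limma in 1-cell embryos than in oocytes (0 also at an unadjusted p below 0.05) and 41 lower, and 57 were higher and 6 lower in blastocysts than in 8-cell embryos. With that scaling the median change of all genes was −0.61 and 0.79 in these comparisons on the log2 scale, against 0.03 and −0.06 as deposited, so directions below are relative to the bulk of the transcripts.

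**Figure D1:**
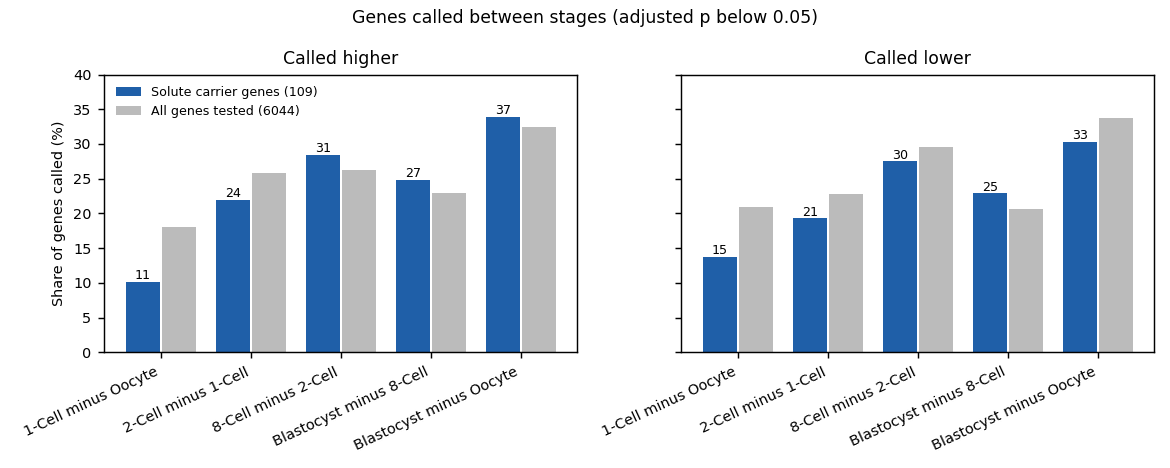
Percentage of solute carrier genes (blue, 109 genes) and of all genes tested (grey, 6044 genes) called higher (left panel) or lower (right panel) in each comparison of stages; the number above a blue bar is the count of carrier genes. The blue bars are shorter than the grey in the 1-cell against oocyte comparison and close to them in the others.

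The 109 genes did not share a common course. The highest stage mean lay in the oocyte for 23, the 1-cell embryo for 19, the 2-cell embryo for 19, the 8-cell embryo for 15 and the blastocyst for 33. As shares of the carriers and of all genes tested, these were 21.1% and 16.6% for the oocyte, 17.4% and 24.3% for the 1-cell embryo, 17.4% and 17.5% for the 2-cell embryo, 13.8% and 19.5% for the 8-cell embryo, and 30.3% and 22.1% for the blastocyst. Across the 4 consecutive comparisons 19 carriers were never called (17.4%, with 16.6% of all genes) and 9 were called each time (8.26%, with 9.36% of all genes). Both late steps brought a rise for 12 carriers (11%, with 6.09% of all genes), 6 of them in the amino acid class (Slc6a8, Slc7a6, Slc7a7, Slc38a2, Slc38a4 and Slc38a10). A further 9 rose at the 8-cell stage and fell at the blastocyst stage (8.26%, with 8.12% of all genes), and 7 fell at both (6.42%, with 5.03% of all genes). The differences between these shares were not tested. These patterns also depend on the scaling. With spike scaling the blastocyst change of Slc12a7 and Slc25a20, which rose and then fell, was positive. So was that of Slc6a15, Slc7a2, Slc39a6 and Slc25a28, which fell at both steps. Fold changes here are on the scale of log2(signal + 10.7), which understates the change of dim genes, and each log2 change is given with its standard error.

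**Figure D2:**
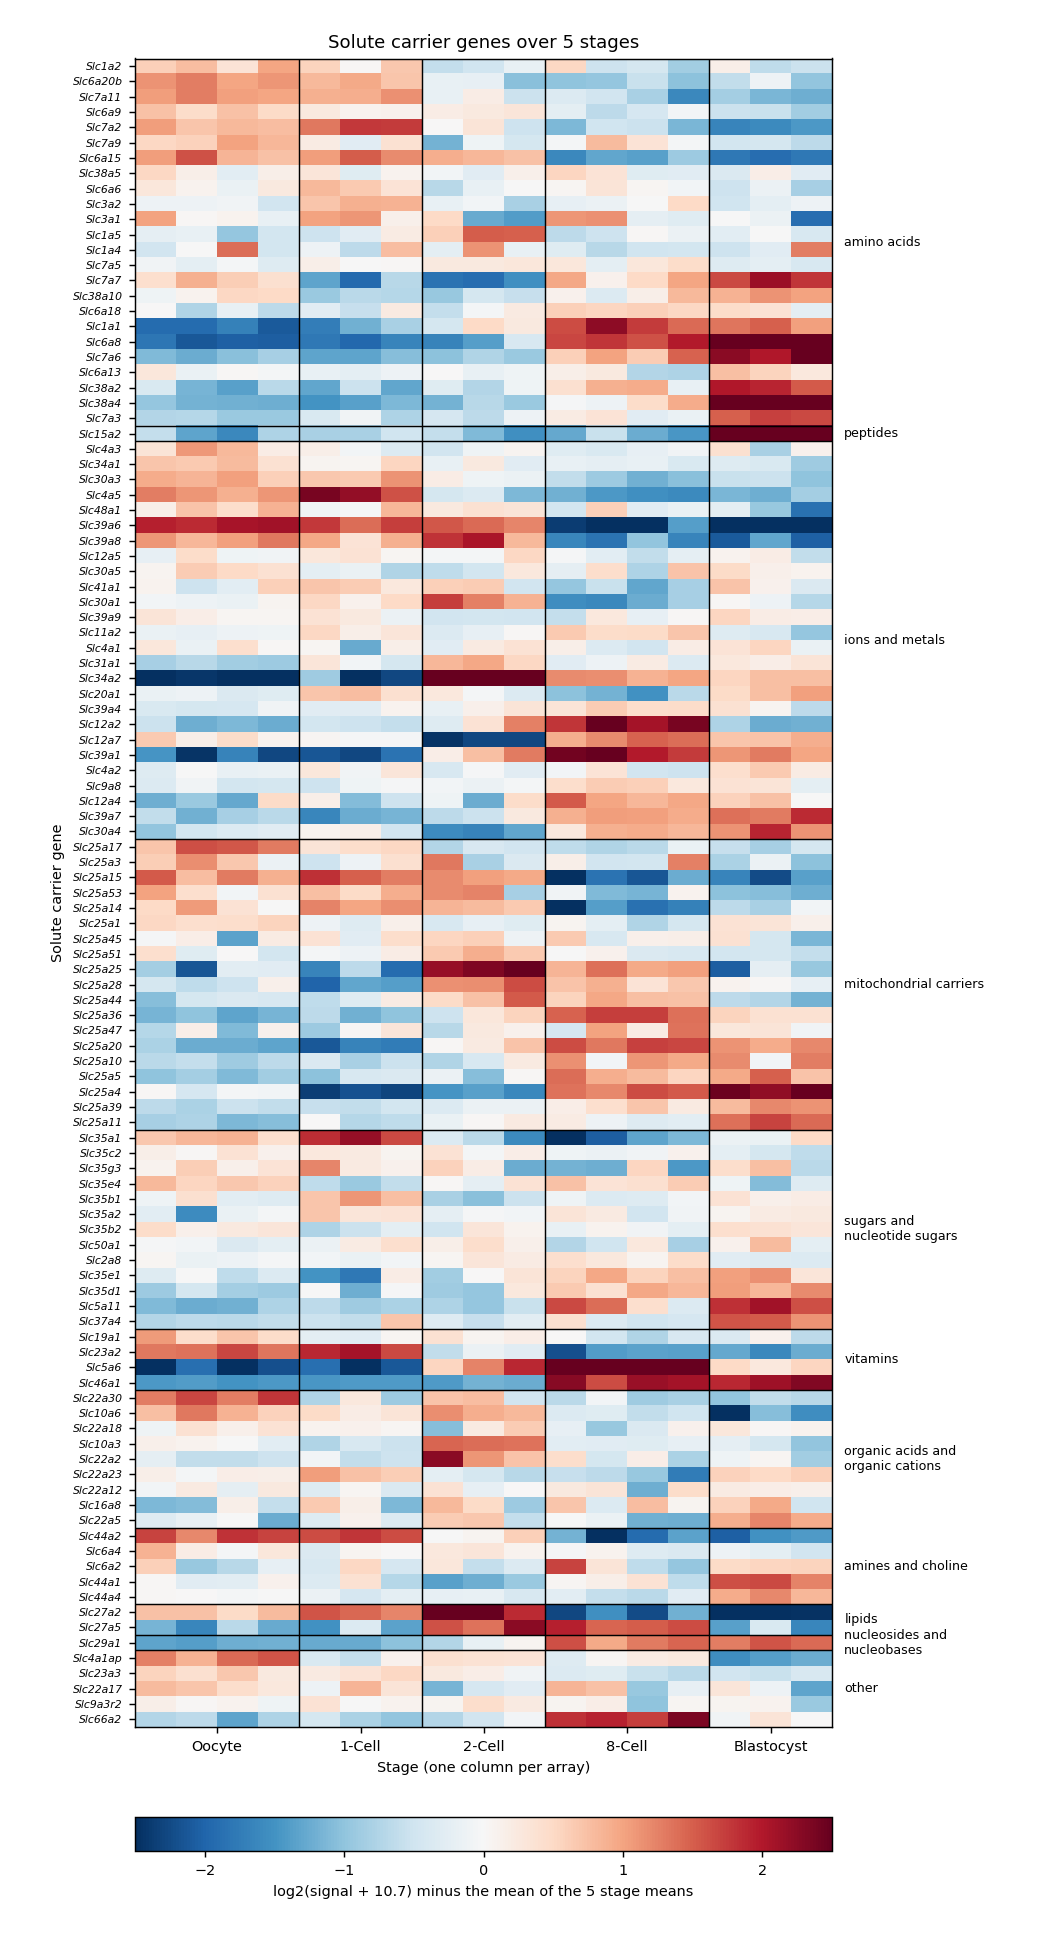
Each row is 1 of the 109 solute carrier genes and each column 1 of the 17 arrays, ordered by stage and grouped by substrate class. Colour gives log2(signal + 10.7) minus the mean of the gene's 5 stage means, red above and blue below, and values past the ends of the colour bar take its end colours. Arrays of a stage resemble each other, and the amino acid, ion and mitochondrial classes hold red rows at every stage.

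The largest rise between consecutive stages was that of the peptide carrier. Slc15a2 encodes PEPT2, which takes up di- and tripeptides together with protons and is the only peptide carrier among the members. Its signals were 21.1, 8.4, 4.9 and 17.3 on the oocyte arrays, 16.7, 16.5 and 23.1 on the 1-cell arrays, 20.8, 11.4 and 5.7 on the 2-cell arrays, 9.0, 21.8, 9.6 and 6.7 on the 8-cell arrays and 750.2, 896 and 629.5 on the blastocyst arrays. The blastocyst arrays stood far apart from the other 14, all of which lay below the filter level of 41.1. Slc15a2 thus passed the filter only through the blastocyst arrays, and its blastocyst call is not independent of the filter. Blastocysts exceeded 8-cell embryos by 5.13 ± 0.30 (adjusted p = 2.22e-11), and the 3 earlier steps were not called. The RefSeq promoter of this gene (GRCm38.p6, chr16:36784913-36785212, minus strand) is shown because it belongs to the carrier with the largest called change between consecutive stages. Capitals mark AGATAA, the core read by GATA factors, which are active in trophectoderm, and TGCNCNC, the core of the metal response element, each searched on both strands.

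Slc15a2: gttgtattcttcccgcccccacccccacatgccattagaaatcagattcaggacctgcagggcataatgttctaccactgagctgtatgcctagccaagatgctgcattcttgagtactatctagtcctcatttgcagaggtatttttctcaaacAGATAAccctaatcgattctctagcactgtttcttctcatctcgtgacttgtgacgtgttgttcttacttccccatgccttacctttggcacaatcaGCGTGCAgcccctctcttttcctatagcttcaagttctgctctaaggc

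AGATAA was present in 11.2% and TGCNCNC in 51.0% of the 32851 promoters of the same length, so a match is common, and here it only describes the letters. Promoters were listed for 122 of the 148 genes.

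Of 28 amino acid carriers on the array 24 passed the filter. Each step is given against the stage before. In 1-cell embryos 2 rose (8.33%, with 18.0% of all genes) and 3 fell (12.5%, with 20.9%). At the 2-cell step 2 rose (8.33%, with 25.8%) and 7 fell (29.2%, with 22.8%). For 8-cell embryos 9 rose (37.5%, with 26.2%) and 4 fell (16.7%, with 29.6%). Among blastocyst calls 8 rose (33.3%, with 23.0%) and 5 fell (20.8%, with 20.7%). Blastocysts held 8 above (33.3%, with 32.4% of all genes) and 8 below (33.3%, with 33.8%) their oocyte level. No test compared class shares with those of all genes, here or in the classes below. The class held rising and falling genes at every step. Those that rose late are described first and those that fell after them.

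The creatine carrier Slc6a8, classed here by its family with amino acid derivatives, had signals of 4.4, 1.4, 2.1 and 1.9 on the oocyte arrays, 4.5, 2.9 and 6.0 on the 1-cell arrays, 5.9, 9.5 and 29.4 on the 2-cell arrays, 158, 172, 148 and 198 on the 8-cell arrays and 418, 451 and 555 on the blastocyst arrays. The 2-cell, 8-cell and blastocyst arrays did not overlap with each other. The change was 2.91 ± 0.26 (adjusted p = 4.47e-09) in 8-cell against 2-cell embryos and 1.43 ± 0.26 (adjusted p = 1.30e-04) in blastocysts against 8-cell embryos. Slc38a4 encodes SNAT4, a sodium-coupled carrier of small neutral amino acids. Its signals were 35.4, 29.2, 28.7 and 27.9 on the oocyte arrays, 21.4, 24.3 and 30.6 on the 1-cell arrays, 29, 45.4 and 36.9 on the 2-cell arrays, 77.9, 71.7, 112 and 161 on the 8-cell arrays and 709, 668 and 929 on the blastocyst arrays. Again both late steps were called, at 1.24 ± 0.24 and 2.79 ± 0.24, and the blastocyst arrays lay above all others. Its relative Slc38a2 (SNAT2), a carrier induced by amino acid shortage in many cells, measured 102, 95.6 and 71.8 in blastocysts, against 26.9, 41.5, 43 and 14.2 in 8-cell embryos (1.31 ± 0.33, adjusted p = 0.00256). That call was lost with an offset of 1 in place of 10.7, and the smaller 8-cell rise (0.89) was lost with spike scaling, without 2-cell replicate 2 and without 8-cell replicate 2 or 3.

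Slc7a6 (y+LAT2) and Slc7a7 (y+LAT1) are light chains that pair with the heavy chain Slc3a2 and exchange cationic for neutral amino acids. Slc7a6 rose by 1.83 ± 0.26 in 8-cell embryos and by 1.34 ± 0.26 in blastocysts, where its signals were 138, 114 and 173 against 36.3, 51.8, 37.8 and 76.3 in 8-cell embryos, and its second probe set was called the same way at both steps. Slc7a7 took a different route, with signals of 71.3, 103, 84.2 and 70.8 on the oocyte arrays, 13.9, 5.3 and 27.7 on the 1-cell arrays, 6.4, 5.8 and 10.5 on the 2-cell arrays, 110.3, 55.7, 76.7 and 111 on the 8-cell arrays and 184, 262 and 202 on the blastocyst arrays. It was low on all 1-cell and 2-cell arrays. The fall in 1-cell embryos was −1.90 ± 0.28 (adjusted p = 1.37e-05), and the rises that followed were 2.41 ± 0.28 in 8-cell embryos and 1.22 ± 0.28 in blastocysts. The cationic amino acid carrier Slc7a3 (CAT3) had 80.8, 96.3 and 91.2 in blastocysts and 26.8, 30.6, 16.1 and 18.5 in 8-cell embryos (1.59 ± 0.25, adjusted p = 2.86e-05). Only its blastocyst arrays lay above the filter level, so that call is not independent of the filter. Slc1a1 encodes EAAC1, the sodium-coupled carrier of glutamate and aspartate, and it rose earlier. Its signals were 3.1, 3.1, 5.5 and 1.5 on the oocyte arrays, 5.0, 12 and 18.9 on the 1-cell arrays, 27.8, 62.9 and 51.2 on the 2-cell arrays, 150.4, 234, 165 and 128 on the 8-cell arrays and 122, 136 and 95.3 on the blastocyst arrays. The rises were 1.35 ± 0.29 in 2-cell and 1.65 ± 0.28 in 8-cell embryos, and the blastocyst step was not called (−0.47). Its second probe set was called higher in 2-cell embryos too, but its 8-cell change (0.48) was not called and its blastocyst change (−0.95) was called lower.

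The carriers that fell did so at different steps. Slc7a2 (CAT2), another cationic amino acid carrier, had signals of 218, 169, 185 and 180.1 on the oocyte arrays, 267, 371 and 365 on the 1-cell arrays, 101, 128 and 67.5 on the 2-cell arrays, 40.7, 68.3, 66 and 39.7 on the 8-cell arrays and 24.9, 26.4 and 30.5 on the blastocyst arrays. Its level was called higher in 1-cell embryos than in oocytes (0.78 ± 0.22, lost with spike scaling) and then lower at each later step, with −1.68 ± 0.24 (adjusted p = 4.87e-06) in 2-cell embryos. The 8-cell fall (−0.76) was lost without 2-cell replicate 2, and the blastocyst fall (−0.73) became 0.04 with spike scaling. Slc6a15 (B0AT2), a sodium-coupled carrier of branched-chain amino acids and proline, measured 72.9, 92.2, 89.1 and 126 in 8-cell embryos, against 468, 439.8 and 409.9 in 2-cell embryos (−2.11 ± 0.20, adjusted p = 1.07e-08). These groups did not overlap. The change of the cystine and glutamate exchanger Slc7a11 (xCT) was −1.16 ± 0.30 in 2-cell embryos, and that of Slc6a20b, of a group that carries proline and related imino acids, was −1.30 ± 0.25. Slc6a9 encodes GLYT1, which accumulates glycine as an osmolyte in mouse oocytes and early embryos. It averaged 224 ± 39.6 in 8-cell embryos and 338 ± 13.6 in 2-cell embryos (SD, n = 4 and 3), a change of −0.59 ± 0.16, and blastocysts lay 1.25 below oocytes on the log2 scale.

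The heavy chain Slc3a2 (4F2hc, CD98), which brings several light chains to the cell surface, peaked in the 1-cell embryo. Its signals were 1473, 1687 and 1674 in 1-cell embryos, against 829, 834, 858 and 652 in oocytes (1.02 ± 0.19, adjusted p = 1.88e-04), a rise of 0.24 that was not called with spike scaling. The 2-cell arrays returned to 799.6, 865 and 517 (−1.17 ± 0.20, adjusted p = 5.15e-05), and no later step was called. The light chain Slc7a5 (LAT1), a carrier of large neutral amino acids, moved little, with stage means that ran between 147 ± 8.35 in blastocysts and 225 ± 5.26 in 2-cell embryos (SD, n = 3 each). Its blastocyst fall against 8-cell embryos (−0.52) was lost without 8-cell replicate 4 or blastocyst replicate 3, and with spike scaling the change was 0.41. Slc1a5 (ASCT2), a glutamine and neutral amino acid exchanger, lay above the filter level only on the 2-cell arrays. It had 50.5, 106 and 103 there, against 17.6, 22.5 and 36.1 in 1-cell embryos (1.40 ± 0.31, adjusted p = 7.31e-04), and 15.1, 17.4, 30.6 and 25.9 in 8-cell embryos, a change of −1.52 ± 0.29. Slc1a5 was thus tested because of its 2-cell signals, and these calls are not independent of the filter. The taurine carrier Slc6a6 had its brightest probe set at 221, 319.5 and 359.7 in 2-cell and 643, 575 and 462 in 1-cell embryos (−0.89 ± 0.21, adjusted p = 0.0011), but its second probe set was not called at that step and the call was lost when probe sets were averaged.

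**Figure D3:**
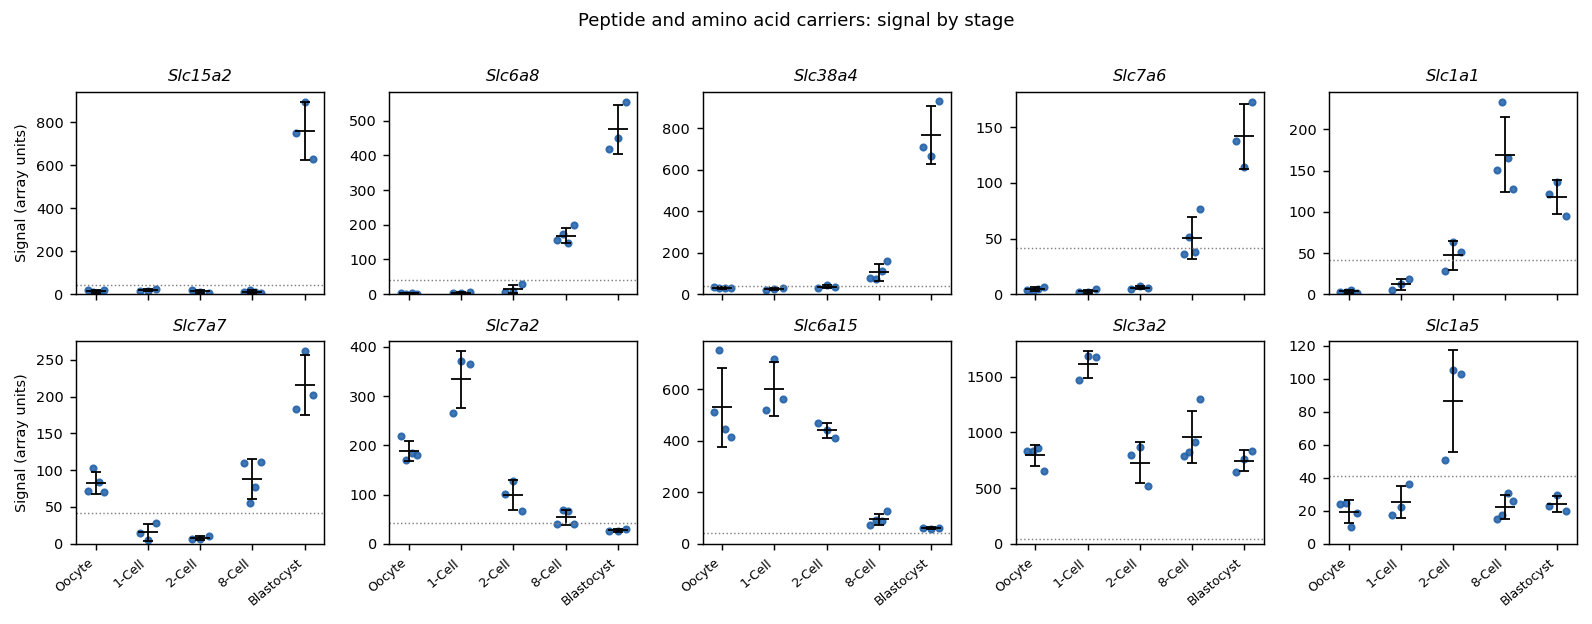
Signal (array units, linear axis from 0) of the peptide carrier Slc15a2 and 9 amino acid and creatine carriers on every array by stage; blue points are arrays, black marks are the mean and SD of a stage, and the dotted line is the filter level of 41.1. Slc15a2, Slc6a8, Slc38a4 and Slc7a6 are highest on the blastocyst arrays, Slc7a2 and Slc3a2 on the 1-cell arrays, and Slc1a5 on the 2-cell arrays.

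Carriers of inorganic ions and metals formed the largest class, with 26 of 37 genes past the filter. In 1-cell embryos 4 rose (15.4%, with 18.0% of all genes) and 1 fell (3.85%, with 20.9%). At the 2-cell step 7 rose (26.9%, with 25.8%) and 7 fell (26.9%, with 22.8%). For 8-cell embryos 8 rose (30.8%, with 26.2%) and 9 fell (34.6%, with 29.6%). Among blastocyst calls 5 rose (19.2%, with 23.0%) and 7 fell (26.9%, with 20.7%). Blastocysts held 10 above (38.5%, with 32.4% of all genes) and 8 below (30.8%, with 33.8%) the oocyte level.

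Sodium-phosphate cotransporters differed in the stages at which they were high. Slc34a2 encodes NaPi-IIb, known from the apical membrane of intestine and lung. Its signals were 9.5, 10.5, 7.0 and 9.6 on the oocyte arrays, 51, 9.1 and 13.2 on the 1-cell arrays, 722, 740.0 and 772 on the 2-cell arrays, 250.1, 246, 200.1 and 217 on the 8-cell arrays and 156, 182 and 182 on the blastocyst arrays. The 2-cell arrays lay above all others, with a rise of 4.62 ± 0.29 (adjusted p = 1.72e-11), the largest of any carrier at that step, followed by a change of −1.67 ± 0.27 in 8-cell embryos. Slc20a1 (PiT-1), the widely used phosphate carrier, had 234, 209.7, 163 and 300.2 in 8-cell and 592, 474 and 385 in 2-cell embryos (−1.07 ± 0.19, adjusted p = 7.06e-05), and 681, 824 and 1007 in blastocysts (1.85 ± 0.19, adjusted p = 1.30e-07 against 8-cell embryos). Its 1-cell rise (0.87) was lost with spike scaling. Slc34a1 (NaPi-IIa) was at 12.9 to 24.6 in blastocysts, against 46.1 to 65 in oocytes (−1.16 ± 0.24, adjusted p = 1.86e-04).

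The cation-chloride cotransporters, which set cell volume and chloride, moved in different ways. Slc12a2 encodes NKCC1, which brings sodium, potassium and chloride into the cell. Its signals were 469, 286, 308 and 282 on the oocyte arrays, 497, 474 and 450.0 on the 1-cell arrays, 542, 877 and 1657 on the 2-cell arrays, 2399, 4025, 2926 and 3614 on the 8-cell arrays and 399, 282 and 293 on the blastocyst arrays. The 8-cell arrays were the highest and did not overlap with any other stage. The rise was 1.77 ± 0.27 (adjusted p = 8.46e-06) in 8-cell embryos and the fall −3.27 ± 0.27 (adjusted p = 4.41e-09) in blastocysts, a 9.62-fold difference on the offset scale. Its smaller 2-cell rise (0.95) was lost with median centring and without 2-cell replicate 3. Slc12a7 encodes KCC4, which lets potassium and chloride out. It measured 183, 126, 158 and 121 on the oocyte arrays, 116, 109 and 109 on the 1-cell arrays, 11.7, 14.7 and 14.9 on the 2-cell arrays, 220.4, 267, 331 and 314 on the 8-cell arrays and 188, 190.4 and 221 on the blastocyst arrays. The 2-cell arrays were the lowest, with a change of −2.32 ± 0.20 against 1-cell embryos, and the level was higher again by 3.57 ± 0.19 (adjusted p = 1.06e-12) in 8-cell embryos. Slc12a4 (KCC1) also rose in 8-cell embryos (1.38 ± 0.42), a call lost without 2-cell replicate 2, and Slc12a5 (KCC2) was not called at any step.

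Among bicarbonate carriers, Slc4a5 (NBCe2) had 14.3, 16.1 and 4.8 in 2-cell embryos, against 166, 145 and 91.8 in 1-cell embryos (−2.69 ± 0.28, adjusted p = 5.80e-08), and it was below 41.1 on every later array. Slc4a2 (AE2), the exchanger of chloride and bicarbonate by which embryos correct a rise in pH, varied little. It had 114, 136 and 96.5 in blastocysts and 77.4, 106, 55.8 and 53.6 in 8-cell embryos (0.62 ± 0.22, adjusted p = 0.0286), a call lost without 8-cell replicate 3 or 4 and without blastocyst replicate 1 or 2. Slc4a1, the red cell anion exchanger, was at 7.5 to 52.8 over all 17 arrays and not called at any step.

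Among zinc carriers, the Slc39 family (ZIP) brings zinc into the cytosol and the Slc30 family (ZnT) takes it out. Slc39a6 (ZIP6), a zinc importer known in mouse oocytes, had signals of 1600.4, 1517, 1749 and 1797 on the oocyte arrays, 1415, 1096 and 1379 on the 1-cell arrays, 1226, 1108 and 973 on the 2-cell arrays, 70.0, 64.5, 62.9 and 152 on the 8-cell arrays and 46.2, 41 and 59.8 on the blastocyst arrays. The 8-cell and blastocyst arrays did not overlap with the earlier ones, with −3.58 ± 0.22 (adjusted p = 1.11e-11) in 8-cell embryos. The further blastocyst change (−0.64) was 0.20 with spike scaling and its call was lost without 8-cell replicate 4 and without blastocyst replicate 1 or 2. Slc39a8 (ZIP8), which also carries manganese, measured 5.2, 3.0, 14.1 and 5.1 in 8-cell embryos, against 162, 192 and 75.5 in 2-cell embryos (−3.08 ± 0.30, adjusted p = 2.04e-08). Slc39a7 (ZIP7), which releases zinc from the endoplasmic reticulum, went the other way. It had 162, 181, 179 and 166 in 8-cell and 48.7, 53.8 and 98.8 in 2-cell embryos (1.28 ± 0.23, adjusted p = 8.01e-05), and blastocysts lay 2.34 ± 0.23 above oocytes.

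Slc39a1 (ZIP1) depended on the probe set. The brighter probe set had 88.7, 138 and 206 in 2-cell embryos, against 9.3, 7.5 and 13.8 in 1-cell embryos (2.83 ± 0.30, adjusted p = 7.89e-08), and it was called higher again in 8-cell embryos (1.45). The second probe set was not called in 2-cell embryos (−0.26) and was called lower in 8-cell embryos, at −1.54, and the mean of both moved by −0.05. No direction is therefore given for Slc39a1 in 8-cell embryos. Slc39a4 also depended on the probe set. Its brighter probe set was not called in 2-cell (0.25) or 8-cell embryos (0.37), while the second was called higher at both steps (2.52 and 1.07). Stage means of the second ran 43.55, 61.3, 407, 858 and 379 from oocyte to blastocyst. Both were called lower in blastocysts than in 8-cell embryos (−0.53 and −1.14), a change that was positive for the brighter with spike scaling.

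Slc30a1 encodes ZnT1, the plasma membrane zinc exporter, whose transcription is known to follow zinc through the factor MTF1 and metal response elements. Its promoter (GRCm38.p6, chr1:191906531-191906830, plus strand) is shown for those elements, with TGCNCNC in capitals as read on the minus strand.

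Slc30a1: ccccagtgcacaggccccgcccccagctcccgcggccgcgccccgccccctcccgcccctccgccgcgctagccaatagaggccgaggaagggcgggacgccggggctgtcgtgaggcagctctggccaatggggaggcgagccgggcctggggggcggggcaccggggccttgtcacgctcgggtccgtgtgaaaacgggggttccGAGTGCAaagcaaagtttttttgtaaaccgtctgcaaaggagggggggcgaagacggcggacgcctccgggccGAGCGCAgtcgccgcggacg

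The signals of Slc30a1 were 70.4, 67.7, 64.7 and 78.2 on the oocyte arrays, 111, 80.6 and 109 on the 1-cell arrays, 269.9, 192 and 146 on the 2-cell arrays, 18.5, 17.1, 25.2 and 37 on the 8-cell arrays and 76.4, 67.6 and 41 on the blastocyst arrays. The 2-cell arrays were the highest and the 8-cell arrays the lowest. The 2-cell rise was 0.92 ± 0.27 (adjusted p = 0.00676), lost with median centring and without 2-cell replicate 1, the 8-cell fall was −2.59 ± 0.25 (adjusted p = 1.23e-08), and the blastocyst rise 1.04 ± 0.25 (adjusted p = 0.0018). The metallothioneins Mt1 and Mt2, zinc-binding proteins that use the same element, rose in 2-cell embryos by 4.81 ± 0.30 and 5.34 ± 0.18. Mt2 had 5678, 5655 and 8047 in 2-cell and 135, 135 and 175 in 1-cell embryos. In 8-cell embryos both went up further (1.49 and 0.83) while Slc30a1 fell. The transcript of Mtf1 itself was called lower at that step (−1.24 ± 0.26). A link between these changes was not tested.

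Other zinc exporters followed their own courses. Slc30a4 (ZnT4) measured 137, 218, 224 and 209.6 in 8-cell embryos, against 30.9, 27.9 and 39.5 in 2-cell embryos (2.24 ± 0.25, adjusted p = 9.09e-08), after a fall in 2-cell embryos (−1.43 ± 0.26). Slc30a3 (ZnT3), known for loading zinc into synaptic vesicles, had 508, 515 and 364 in blastocysts, against 1423, 1364, 1525 and 1136 in oocytes (−1.55 ± 0.18, adjusted p = 1.07e-07). The copper importer Slc31a1 (CTR1) was highest in 2-cell embryos by its brighter probe set. It had 1664, 1818 and 1339 there, against 1147, 880.3 and 683 in 1-cell embryos (0.84 ± 0.18, adjusted p = 5.89e-04). The second probe set was not called at that step. Its highest mean lay in blastocysts (244.5, against 147 in 2-cell embryos), with a called rise of 1.36 over 8-cell embryos. The stage of the highest level of Slc31a1 thus depends on the probe set. Slc11a2 (DMT1), which carries iron, had probe sets called in opposite directions in blastocysts against oocytes, at −0.41 and 1.45.

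**Figure D4:**
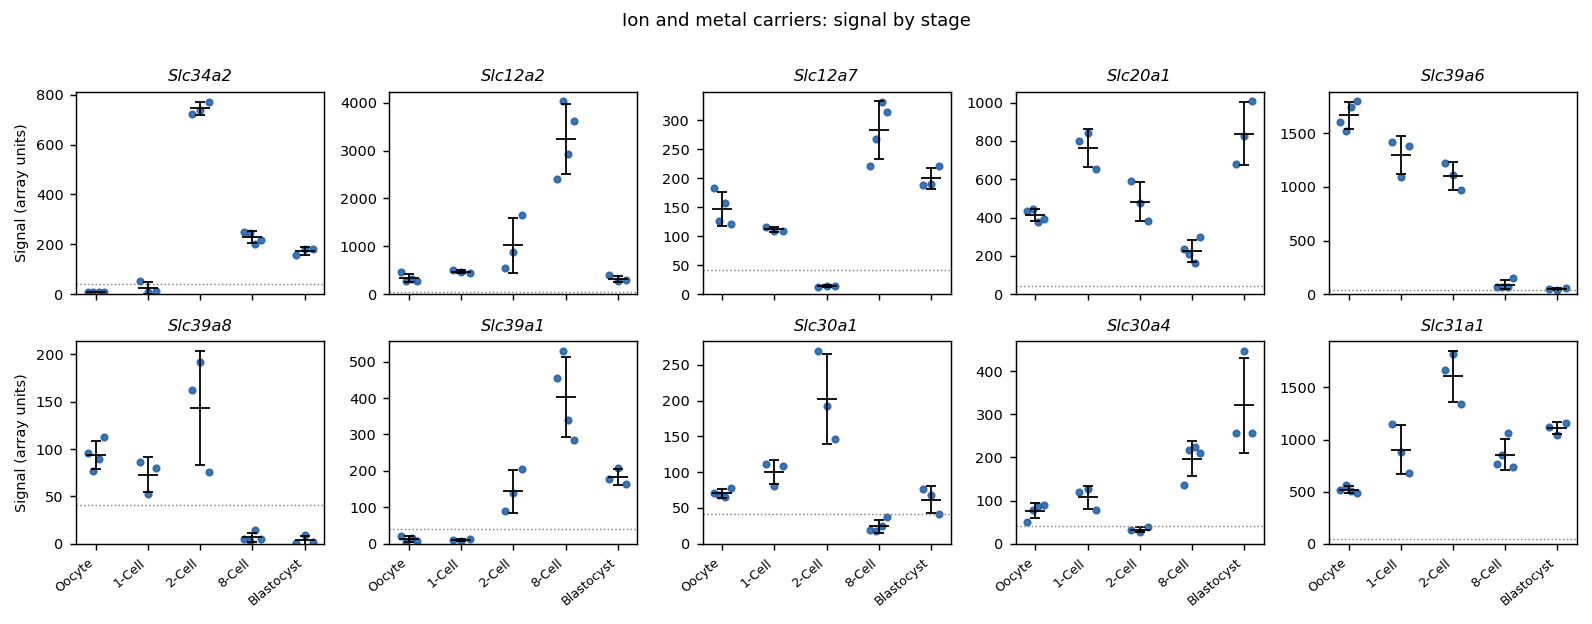
Signal (array units, linear axis from 0) of 10 ion and metal carriers on every array by stage; blue points are arrays, black marks are the mean and SD of a stage, and the dotted line is the filter level of 41.1. Slc34a2 and Slc30a1 are highest on the 2-cell arrays, Slc12a2 on the 8-cell arrays, and Slc39a6 and Slc39a8 are low on the 8-cell and blastocyst arrays, where the top signal of Slc39a6 is 152.0 on 8-cell replicate 4.

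Of the 20 Slc25 carriers on the array, most of them in the inner mitochondrial membrane, 19 passed. In 1-cell embryos 0 rose by limma, with 18.0% of all genes, and 5 fell (26.3%, with 20.9%). Of the 14 not called, 2 had an unadjusted p below 0.05. At the 2-cell step 7 rose (36.8%, with 25.8%) and 1 fell (5.26%, with 22.8%). For 8-cell embryos 6 rose (31.6%, with 26.2%) and 6 fell (31.6%, with 29.6%). Among blastocyst calls 5 rose (26.3%, with 23.0%) and 5 fell (26.3%, with 20.7%). Blastocysts held 7 above (36.8%, with 32.4% of all genes) and 5 below (26.3%, with 33.8%) the oocyte level.

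Slc25a4 encodes ANT1, which exchanges ATP made in the matrix for cytosolic ADP. Its signals were 506, 367, 474 and 468 on the oocyte arrays, 88.3, 100.4 and 92.5 on the 1-cell arrays, 172, 186 and 155 on the 2-cell arrays, 1281, 1153, 1557 and 1438 on the 8-cell arrays and 2747, 2336 and 3105 on the blastocyst arrays. The level was lowest on the 1-cell arrays, with −2.14 ± 0.15 (adjusted p = 5.77e-10) against oocytes, and each later step was called higher, at 0.80 ± 0.17, 2.91 ± 0.15 and 1.00 ± 0.15. The isoform Slc25a5 (ANT2) has 3 probe sets past the filter. The brightest had 597, 878 and 510.2 in blastocysts and 146, 165, 136 and 162 in oocytes (2.01 ± 0.25, adjusted p = 4.32e-07), but 1 of the 3 was called the other way in that comparison, at −2.03, so its direction is uncertain. Adenine nucleotide carriers have many processed pseudogenes, and a probe set may read more than a single copy.

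Slc25a25 encodes a calcium-regulated exchanger of ATP-magnesium for phosphate, and it was highest in 2-cell embryos. Its signals were 60.1, 18.1, 95.8 and 93.6 on the oocyte arrays, 30.0, 69.9 and 22.7 on the 1-cell arrays, 566, 630.2 and 702 on the 2-cell arrays, 218, 318, 235 and 250.5 on the 8-cell arrays and 19.9, 98.8 and 55.8 on the blastocyst arrays. The rise was 3.74 ± 0.44 (adjusted p = 2.77e-07), followed by falls in 8-cell embryos (−1.28 ± 0.41) and blastocysts (−2.12 ± 0.41). Slc25a28 (mitoferrin-2, an iron importer) had 379, 381 and 529 in 2-cell and 33, 60.1 and 56.9 in 1-cell embryos (2.87 ± 0.23, adjusted p = 1.17e-09), after a 1-cell fall (−1.19 ± 0.22). Its blastocyst fall (−0.69) was 0.26 with spike scaling and was lost without blastocyst replicate 3. Slc25a20, the carnitine and acylcarnitine carrier that admits fatty acids for oxidation, had 292, 341 and 478 in 2-cell embryos, against 58.2, 82.6 and 78.7 in 1-cell embryos (2.17 ± 0.20, adjusted p = 7.83e-09), and 913, 736, 961 and 946 in 8-cell embryos (1.26 ± 0.19, adjusted p = 6.02e-06). Slc25a36, a pyrimidine nucleotide carrier, rose at the same steps, by 1.06 ± 0.22 and 1.47 ± 0.21.

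Slc25a15 (ORC1) exchanges ornithine and citrulline in the urea cycle. It had 90.8, 159, 129 and 248 in 8-cell embryos, against 1376, 1225 and 1173 in 2-cell embryos (−3.00 ± 0.26, adjusted p = 2.75e-09), and the blastocyst arrays remained low at 185, 118 and 227. Slc25a14 (UCP5, also called BMCP1), of the uncoupling protein group, fell at the same step (−2.63 ± 0.26), and its blastocyst level was higher again by 1.36 ± 0.26. Slc25a11, the exchanger of oxoglutarate and malate in the malate-aspartate shuttle, measured 337, 421 and 344 in blastocysts, against 142, 112, 96 and 101 in 8-cell embryos (1.62 ± 0.21, adjusted p = 1.69e-06). Slc25a39, needed for mitochondrial glutathione, stood 1.69 ± 0.16 higher in blastocysts than in oocytes. Slc25a17, a peroxisomal member of the family, averaged 494 ± 35 in 1-cell embryos and 931 ± 244 in oocytes (SD, n = 3 and 4), a change of −0.86 ± 0.20, and fell again in 2-cell embryos (−0.96 ± 0.22).

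Vitamin carriers showed some of the widest ranges. Slc5a6 encodes SMVT, the sodium-dependent carrier of biotin and pantothenate. Its signals were 32.7, 66.1, 40.1 and 51.6 on the oocyte arrays, 66, 13.4 and 55 on the 1-cell arrays, 405, 665 and 1045 on the 2-cell arrays, 2432, 2458, 2345 and 3083 on the 8-cell arrays and 391, 330.2 and 401 on the blastocyst arrays. The 2-cell and 8-cell steps were called higher, at 3.75 ± 0.34 (adjusted p = 6.93e-09) and 1.95 ± 0.32 (adjusted p = 2.29e-05), and the blastocyst step lower at −2.75 ± 0.32 (adjusted p = 5.71e-07). None of the last 3 stages overlapped with another. Slc46a1 encodes PCFT, the proton-coupled folate carrier. It was near 0 on the early arrays, with at most 4.1 on any oocyte, 1-cell or 2-cell array, and had 152, 94.3, 141 and 132 in 8-cell embryos and 114, 137 and 157 in blastocysts. The 8-cell rise over 2-cell embryos was 3.32 ± 0.23 (adjusted p = 8.24e-11). Slc23a2 (SVCT2), which takes up ascorbate, ran the other way. It measured 135, 191 and 171 in 2-cell embryos, against 814, 936 and 688 in 1-cell embryos (−2.23 ± 0.22, adjusted p = 2.77e-08), and fell further in 8-cell embryos (−1.22 ± 0.21). The reduced folate carrier Slc19a1 fell in 1-cell embryos (−0.83 ± 0.24, adjusted p = 0.00795), and its second probe set, at −0.84, was not called.

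Both fatty acid carriers that passed, which are also acyl-CoA synthetases, had their highest stage mean in the 2-cell embryo. Slc27a2 (FATP2) had 6.8, 18.9, 7.4 and 26.4 in 8-cell embryos, against 569, 513 and 298 in 2-cell embryos (−4.23 ± 0.27, adjusted p = 1.83e-11). Slc27a5 (FATP5), known from liver, had 115, 95.8 and 187 in 2-cell and 3.8, 22.1 and 5.8 in 1-cell embryos (2.80 ± 0.36, adjusted p = 1.16e-06). Its 8-cell arrays overlapped with the 2-cell arrays, and that step was not called. Slc27a5 had 5.6, 21.4 and 2.8 in blastocysts, against 149.6, 103, 108 and 118 in 8-cell embryos (−2.75 ± 0.34, adjusted p = 1.14e-06).

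**Figure D5:**
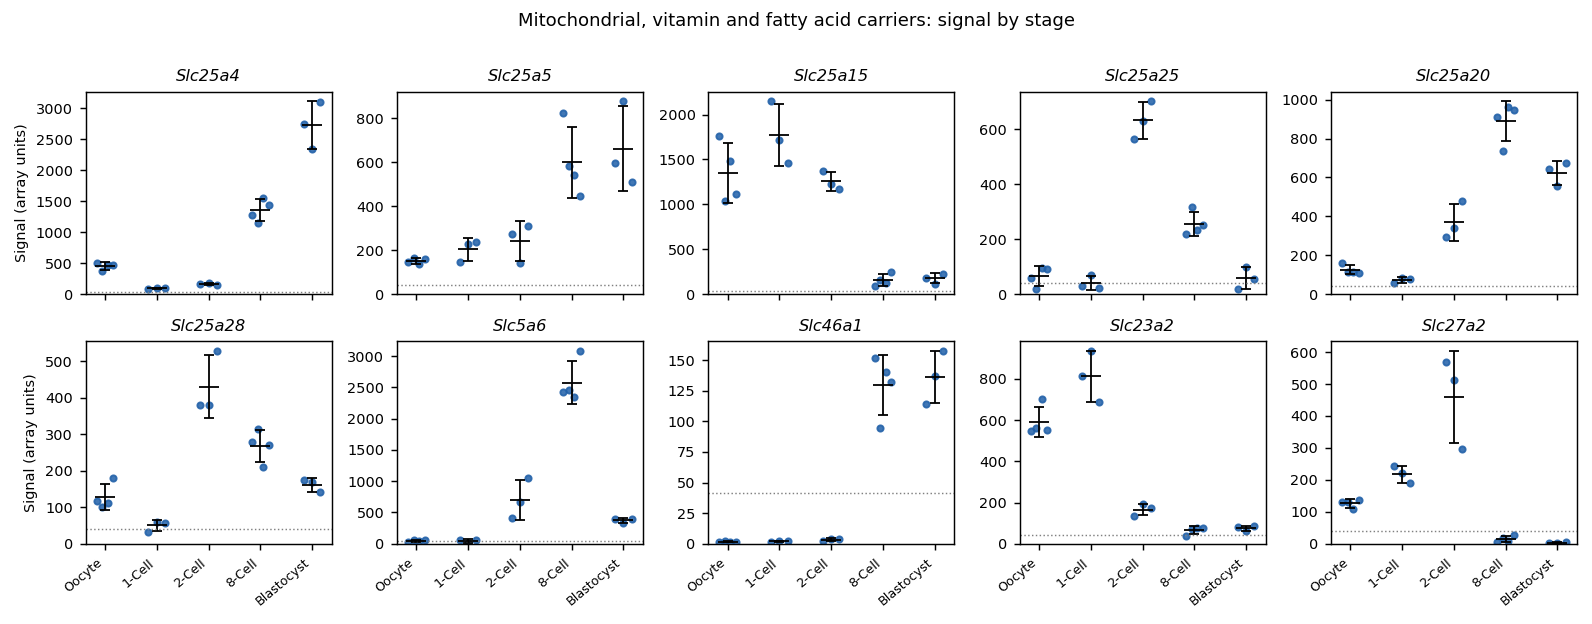
Signal (array units, linear axis from 0) of 6 mitochondrial carriers, the vitamin carriers Slc5a6, Slc46a1 and Slc23a2, and the fatty acid carrier Slc27a2 on every array by stage; blue points are arrays, black marks are the mean and SD of a stage, and the dotted line is the filter level of 41.1. Slc25a25, Slc25a28 and Slc27a2 are highest on the 2-cell arrays, Slc5a6 on the 8-cell arrays, and Slc25a4 on the blastocyst arrays.

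The equilibrative nucleoside carrier Slc29a1 (ENT1) had 298, 186, 238 and 268 in 8-cell embryos, against 50.3, 78.1 and 95.1 in 2-cell embryos (1.62 ± 0.21, adjusted p = 9.99e-07), although its second probe set was not called in any comparison. Among choline carriers, Slc44a1 rose by 1.15 ± 0.25 in 8-cell embryos and 1.52 ± 0.25 in blastocysts, and Slc44a2 fell in 2-cell embryos (−1.47 ± 0.33) and in 8-cell embryos (−2.07 ± 0.31). Slc44a1 had 701, 721 and 535 in blastocysts, against 226, 181, 184 and 241 in oocytes. Slc44a2 had 14.5, 25.7 and 28.4 in blastocysts, against 326, 228, 353 and 325 in oocytes.

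Of 18 sugar and nucleotide sugar carriers 13 passed the filter. In 1-cell embryos 3 rose (23.1%, with 18.0% of all genes) and 2 fell (15.4%, with 20.9%). At the 2-cell step 1 rose (7.69%, with 25.8%) and 2 fell (15.4%, with 22.8%). For 8-cell embryos 3 rose (23.1%, with 26.2%) and 2 fell (15.4%, with 29.6%). Among blastocyst calls 4 rose (30.8%, with 23.0%) and 2 fell (15.4%, with 20.7%). Slc35a1, which brings CMP-sialic acid into the Golgi, had signals of 153, 171, 175 and 127 on the oocyte arrays, 359, 452 and 312 on the 1-cell arrays, 70.4, 53.2 and 23.1 on the 2-cell arrays, 5.7, 14, 30.5 and 36.5 on the 8-cell arrays and 81.4, 80.5 and 134 on the blastocyst arrays. Called steps ran 1.20 ± 0.33 in 1-cell embryos (lost with spike scaling), −2.77 ± 0.35 (adjusted p = 8.11e-07) in 2-cell embryos and 1.84 ± 0.33 (adjusted p = 9.71e-05) in blastocysts, and the 8-cell step (−0.91) was lost with median centring, without 2-cell replicate 1 or 2 and without 8-cell replicate 1 or 2. Slc35b1, of the endoplasmic reticulum, had 405, 340.1 and 486 in 2-cell and 1165, 1553 and 1213 in 1-cell embryos (−1.65 ± 0.19, adjusted p = 2.23e-07). Slc37a4, which carries glucose 6-phosphate into the endoplasmic reticulum, was at 74.8, 72.3 and 52 in blastocysts, against 27.3, 12, 9.8 and 10.9 in 8-cell embryos (1.62 ± 0.31, adjusted p = 2.30e-04). The inositol carrier Slc5a11 rose in 8-cell embryos by 1.55 ± 0.35 and stood 2.92 ± 0.35 above oocytes in blastocysts.

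Of 17 carriers of organic acids and cations 9 passed. Slc10a3, of the bile acid carrier family, had 429.7, 411 and 402 in 2-cell embryos, against 84.9, 110.4 and 99.6 in 1-cell embryos (1.97 ± 0.20, adjusted p = 2.63e-08), and 123, 121, 120.0 and 129 in 8-cell embryos (−1.67 ± 0.18, adjusted p = 9.89e-08). Slc22a2 (OCT2), an organic cation carrier, did likewise, with 1.76 ± 0.37 and −1.51 ± 0.34. The carnitine carrier Slc22a5 (OCTN2) reached 54.2, 70.2 and 55.4 in blastocysts and was at 23.8, 20.3, 4.3 and 4.2 in 8-cell embryos (1.67 ± 0.37, adjusted p = 0.00104).

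Among symbols that name no plasma membrane carrier of a set class, Slc66a2, of a family of lysosomal and other membrane proteins, peaked in 8-cell embryos. It had 850.3, 914, 791 and 1234 there, against 135, 162 and 220.4 in 2-cell embryos (2.39 ± 0.21, adjusted p = 3.49e-09), and 217, 293 and 232 in blastocysts (−1.88 ± 0.21, adjusted p = 3.28e-07 against 8-cell embryos). Slc4a1ap, named for binding the red cell anion exchanger and not itself a carrier, had 220.1, 189.7 and 313 in 1-cell embryos, against 717, 541, 801 and 892 in oocytes (−1.58 ± 0.19, adjusted p = 1.32e-06).

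The remaining 39 genes stayed below the filter, and their highest signal on any array was 65.6. They include 11 ion and metal carriers, 8 organic acid and cation carriers and 4 amino acid carriers. Slc7a1 (CAT1) ran from 1.3 to 4.9, the lactate and pyruvate carrier Slc16a1 (MCT1) from 0.9 to 45.6, and the sodium-calcium exchanger Slc8a1 from 1.0 to 35.8 over its 3 probe sets. Signals this low do not show that the transcripts were absent. Of the 16 genes with several probe sets past the filter, 3 (Slc11a2, Slc25a5 and Slc39a1) had probe sets called in opposite directions in at least 1 comparison. In other genes, among them Slc39a4, a step was called for 1 probe set and not for another.

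Of 25 listed genes that assist or regulate these carriers (subunits, kinases, zinc and amino acid response genes), 19 were on the array and 16 passed. In 1-cell embryos 4 rose (18.0% of all genes) and 2 fell (20.9% of all genes). At the 2-cell step 5 rose (25.8% of all genes) and 2 fell (22.8% of all genes). For 8-cell embryos 5 rose (26.2% of all genes) and 6 fell (29.6% of all genes). Among blastocyst calls 4 rose (23.0% of all genes) and 5 fell (20.7% of all genes). Sgk1, a kinase that raises the surface level of many carriers, had 1175, 1595, 1944 and 1854 in 8-cell embryos, against 102, 119 and 133 in 2-cell embryos (3.67 ± 0.20, adjusted p = 1.93e-12), after a 2-cell rise of 1.44 ± 0.21. Its blastocyst level was lower by 0.54. Bsg (basigin), a chaperone of the lactate carriers, rose by 1.00 ± 0.21 in 8-cell embryos and 0.94 ± 0.21 in blastocysts, and the related Emb (embigin) fell in 8-cell embryos (−2.33 ± 0.34). Asns, the asparagine synthetase of the amino acid response, was higher in blastocysts than in 8-cell embryos. It had 923, 1017 and 1047, against 307, 315, 359 and 196 (1.75 ± 0.17, adjusted p = 5.08e-08). Atf4, Ddit3 and Trib3, response genes of the same list, were not called at that step (−0.18, 0.82 and −0.45).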

How the data were processed

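The deposited values are array intensity signals, 1 per probe set and array, already scaled, as their common trimmed mean shows (about 150 over the middle 96% of values on each array). The scaling method, the software and the genome build are not given in the sources used here. No detection calls were used. Gene symbols came from the platform annotation, updated through RefSeq, where 10833 probe sets have a single symbol and all 181 members matched. The 66 control probe sets were left out. Signals were tested as log2(signal + 10.7), the offset being the 25th percentile of all values. Stage means were estimated jointly from the 17 arrays with limma 3.58.1 (lmFit, eBayes with an intensity trend, 12 residual degrees of freedom) in R 4.3.3, two-sided, with Benjamini-Hochberg adjustment over 8067 probe sets. The number of arrays limits the precision.

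The members and lists were chosen with earlier results of these data known. Any member past the filter could be named. Values per array were given for the genes with the widest range of stage means in each class. They were also given for the 8 largest called rises and falls of each consecutive comparison and for a fixed set of carriers known in embryos. Up to 6 assisting genes were to be named, and Atf4, Ddit3, Trib3 and Mtf1 were added later.

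Replicate numbers do not pair the arrays. Deviations from the stage means correlated at −0.08 to 0.12 over 31 same-numbered pairs. Over 84 pairs with different numbers the range was wider, from −0.27 to 0.36, and 3 of these exceeded 0.1. The source of those shared deviations was not tested. Alternatives covered normalization (quantile, median centring, spiked controls), the offset, the filter, the trend, averaging of probe sets, weights for the arrays, a block by replicate number, leaving out each array, and fitting only the arrays compared. Leaving out probe sets with special suffixes was added after seeing the data.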

Additional observations from a re-analysis of the deposited data

Results flagged for a closer look

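In the groups of 4 arrays (oocytes and 8-cell embryos), 19 of 218 gene and stage combinations had 1 array far from the other 3, its gap to the nearest exceeding Dixon's 95% critical value of the group's range. Chance flags about 1 in 20 groups. The flags fell on every 8-cell and oocyte array, with 1 to 4 on each.

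Among the 8-cell arrays, replicate 1 was lowest for Slc30a4 at 136.9, where the others ran from 209.6 to 224, and for Slc23a2 at 37.7, and highest for Slc37a4 at 27.3. Replicate 2 was lowest for Slc25a10 at 20.6. Replicate 3 was lowest for Slc22a12 and Slc9a3r2, both at 19.7, and highest for Slc35g3 at 93.7 and Slc6a20b at 52.4. Replicate 4 was highest for Slc5a6 at 3083.3, where the others ran from 2345 to 2458, and for Slc39a6 at 152.0, where the others ran from 62.9 to 70.0.

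Among the oocyte arrays, replicate 1 was highest for Slc25a20 at 162.4 and lowest for Slc25a44 at 25.3. Replicate 2 was lowest for Slc22a23 at 34.7 and Slc35a2 at 3.9 and highest for Slc35d1 at 12.4. Replicate 3 was highest for Slc23a2 at 700.4 and lowest for Slc25a45 at 13.6. Replicate 4 was highest for Slc39a4 at 372.6 and lowest for Slc3a2 at 652.1, where the others ran from 829 to 858.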

How the results depend on the processing

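Spike scaling gave 0 genes higher in 1-cell embryos than in oocytes by limma (0 also at an unadjusted p below 0.05) and 41 lower, and 57 higher and 6 lower in blastocysts than in 8-cell embryos. The stricter filter, which leaves 52 genes, gave 19 higher and 19 lower in 8-cell against 2-cell embryos, 16 higher in blastocysts against 8-cell embryos, 22 higher and 18 lower in blastocysts against oocytes, and 51 differing between stages. Array weights gave 17 higher in 1-cell embryos than in oocytes. Median centring gave 17 higher and 30 lower in 2-cell against 1-cell embryos. All other counts over all alternatives stayed within 1.5 times those reported. With the replicate number as a block the counts higher and lower were 9 and 13, 23 and 21, 32 and 28, 25 and 22, and 36 and 35 in the comparisons in order, and 91 differed between stages. Leaving out each array gave ranges of 8 to 13 and 13 to 16, 22 to 25 and 18 to 22, 27 to 34 and 23 to 31, 19 to 28 and 17 to 26, 28 to 38 and 29 to 34, and 85 to 94.

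Of 254 called changes, 203 were kept, 38 lost and 13 reversed with spike scaling. Reversed here means only that the sign differed, whether or not the new value was called, so very small values are included. Lost means the same sign without a call. In 1-cell embryos against oocytes the reversed values were −0.00077 for Slc27a2, −0.018 for Slc31a1 and −0.27 for Slc11a2. In blastocysts against 8-cell embryos they were 0.30 for Slc2a8, 0.20 for Slc39a6, 0.41 for Slc7a5, 0.26 for Slc25a28, 0.48 for Slc12a7, 0.32 for Slc6a15, 0.44 for Slc39a4, 0.036 for Slc7a2, 0.48 for Slc25a20 and 0.37 for Slc6a6. Averaging probe sets reversed Slc11a2 in 1-cell embryos against oocytes (−0.024) and in blastocysts against oocytes (0.52) and Slc39a1 in 8-cell against 2-cell embryos (−0.045). Scalings differ by construction in what they hold constant, and the cause of the other losses was not tested. Low signal limits the dim genes, and the 39 genes below the filter have no test.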
